A study of Mus musculus with 107 samples.

Results

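Mouse embryonic stem cells (ESC) were compared with neural progenitor cells (NPC) grown from them, on the genes outside the panels of pluripotency and neural stem cell markers that the study had chosen. Of the 107 libraries of the series, 20 were used: all 4 libraries labelled as ESC and the 16 paired-read libraries of 4 NPC cultures, namely passage 5 (NPC P5), passage 15 (NPC P15) and passage 30 (NPC P30) and the third derivation at passage 15 (NPC P15 D3), with n = 4 each. The 6 libraries of NPC P15 D2 were read as single ends and were left out. ESC and NPC both carried the RiboTag allele of strain B6N.129-Rpl22tm1.1 Psam/J, which adds an HA tag to a protein of the large ribosomal subunit once Cre has recombined it. The ESC were of 1 female line, which came from embryos of crosses with the maternal-effect Cre strain B6.Cg-Tg(SOX2-cre)1Amc/J. RNA was recovered on HA-tagged ribosomes, and the values therefore describe ribosome-bound RNA. ESC were kept on gelatin with serum and LIF. NPC came from embryoid bodies treated with retinoic acid and purmorphamine, an agonist of sonic hedgehog signalling, and were then expanded in serum-free B27 medium with EGF and FGF. Medium and cell type changed together, so for every gene below their effects cannot be told apart. The passages belong to 1 derivation, so the 4 cultures stand for 2 derivations and for 1 ESC stock. Nothing in the labels says that the replicates were separate cultures, and p-values measure the spread between these libraries.

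As background, ESC grown with LIF are a model of the inner cell mass: they grow as compact epithelial colonies, divide fast and feed on glucose. Cells that adopt a neural fate give up E-cadherin for N-cadherin, exchange subunits of their chromatin complexes, and take on position along the body axis through Hox genes. NPC held in EGF and FGF are a culture state that resembles radial glia and glial progenitors.

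The counts of a library summed to 63904283–89507835 in ESC and to 30473157–147764968 in NPC, and the number of genes with a count was highest in NPC P15 D3 (16833–17297, against 14782–16301 in the other 4 groups). Levels are given in CPM, a gene's counts scaled to a common library total, as means of a group. *Pou5f1*, a marker of ESC, was at 908 ± 31.0 CPM (SD, n = 4) in ESC and at most 0.175 CPM as a mean of any NPC culture, *Nanog* fell from 347 to 0.450 CPM and *Zfp42* from 94.7 to 0.00467 CPM, whereas *Nes* rose from 37.0 to 1203 CPM and *Fabp7* from 0.867 to 801 CPM. *Sox2*, which both cell types use, was lower in NPC (311 CPM) than in ESC (755 CPM). *Rpl22*, the tagged gene, was at 209 ± 13.4 CPM in ESC, and at 116, 97.5, 99.2 and 186 CPM in NPC P5, P15, P30 and P15 D3, and was not a differentially expressed gene (DEG) in every culture, although the pooled fit called it lower (log2FC −0.84, SE 0.21). Ribosomal protein genes took 5.41–6.07% of the counts of an ESC library, 2.42–3.30% in the passages of the first derivation and 3.92–5.24% in NPC P15 D3.

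A gene was called a DEG where the quasi-likelihood test of edgeR gave an adjusted p under 0.01. By this call 5115 of 16558 genes were higher (30.9%) and 4988 lower (30.1%) in pooled NPC than in ESC. Each culture was also set against ESC alone. Since these 4 fits share the ESC libraries, their overlap was used only to define the genes whose change held throughout. Of 14950 genes tested in all 4 fits, 3625 were higher in every culture (24.2%) and 3956 lower in every culture (26.5%). Outside both panels these were 3584 and 3914 genes. Below, a gene rose or fell where it was a DEG in the same direction in each of the 4 culture fits, unless another test is named. The count of a gene list is given out of its members found in the data. Its share of the members tested in all 4 fits is set beside 24.2% and 26.5% for scale only. The lists and their members were chosen with earlier results of these data known. A list share above or below these values is therefore a description and no test of enrichment.

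Among genes lower in all 4 cultures, 732 changed over 100-fold and 377 were left at 3 counts or fewer in each of the 16 NPC libraries. Among genes higher in all 4, 360 changed over 100-fold and 130 had been at that floor in each of the 4 ESC libraries. The median fold was 4.05 for gains and 3.34 for losses. Genes that fell took 52.9% of the counts in ESC and 24.4% in NPC, while genes that rose went from 9.86% to 34.5%. The ESC and NPC libraries did not overlap in CPM for 3578 of the genes that rose and 3738 of those that fell, against 51.0% of all 16558 genes tested. These genes were chosen by tests on the same libraries. The shares of counts and the lack of overlap therefore follow largely from that choice and are no further support.

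**Figure D1:**
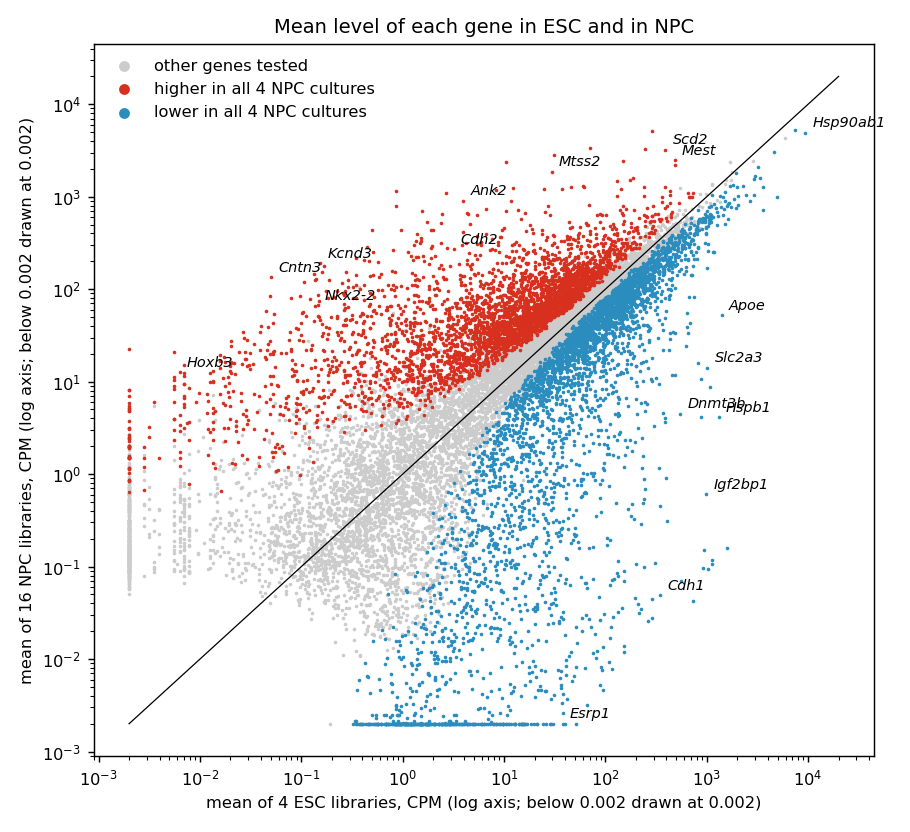
Mean CPM of each named gene tested in the pooled fit, in 4 ESC libraries (x axis) and 16 NPC libraries (y axis), both on log axes, panel genes included. Genes lower in all 4 cultures (blue) reach the bottom edge, where NPC are at or near 0, with *Esrp1* among them at 37.9 CPM in ESC, and genes higher in all 4 (red) run along the left edge.

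Among the named genes, the largest fitted fold of a loss was that of *Esrp1* (chromosome 4, 11331933–11386783 on GRCm38), a regulator of splicing that gives epithelial cells their isoforms. Its levels in the ESC libraries were 36.6, 44.4, 35.3 and 35.4 CPM, and none of the 16 NPC libraries held a count of it. Every ESC library was thus above every NPC library, and the level was at least 819-fold lower in NPC, taking 3 counts per library as the floor. *Cldn6*, a claudin of early epithelia, was at 49.0, 52.6, 53.4 and 51.1 CPM in ESC and at most 0.0258 CPM in an NPC library, which is at least 1113-fold lower. *Cdh1* (chromosome 8, 106603350–106670247), E-cadherin, was at 317, 384, 328 and 357 CPM in ESC, and at a lowest of 0, a median of 0.0256 and a highest of 0.229 CPM in NPC (log2FC −12.95, SE 0.40, adjusted p = 2.5e-17).

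This loss was shared by the epithelial genes as a group. Among 40 genes of epithelial junctions, keratins and their regulators counted, the median log2FC was −8.35 (−7.04 with genes at the floor set to their bound), against 0.03 over all 16558 genes tested. Of the 40, 35 fell in all 4 cultures and none rose (92.1% and 0.0% of the 38 tested in all 4 fits). They included claudins (*Cldn3*, *Cldn4*, *Cldn7*), desmosomal genes (*Dsg2*, 128 to 0.49 CPM; *Pkp3*, 21.7 to 0.0046 CPM), simple keratins (*Krt8*, *Krt18*, *Krt19*), the transcription factor *Grhl2* (21.2 to 0.037 CPM), and the membrane protease *St14* with its inhibitors *Spint1* and *Spint2*. Junction genes that neural cells also use kept part of their level: *Jup*, plakoglobin, went from 268 to 21.3–32.7 CPM, and *Ctnna1*, which links cadherins to actin, from 555 to 200–212 CPM. *Dsc2* was the member with a higher level in NPC (0.881 against 2.48–11.4 CPM), though not a DEG in every culture.

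Adhesion genes of neural and mesenchymal cells went the other way. Of 26, 21 rose and 3 fell (87.5% and 12.5% of the 24 tested in all 4 fits), with a median log2FC of 4.88. *Cdh2*, N-cadherin, was at 2.71, 3.05, 3.52 and 3.43 CPM in ESC and at 240, 268, 367 and 208 CPM in NPC P5, P15, P30 and P15 D3 (log2FC 6.31, SE 0.23, adjusted p = 3.6e-16). *Zeb1*, a repressor of epithelial genes, rose from 26.5 to 286–484 CPM and *Zeb2* from 1.57 to 38.2–66.0 CPM. *Snai1* rose less (15.7 to 26.9–57.7 CPM), and *Snai3*, at 12.6 CPM in ESC, had no count in NPC. *Astn1*, a guide of neuronal migration, went from 0.960 to 298–604 CPM and *Ncam1* from 7.25 to 157–421 CPM, while *L1cam* and *Cntn2*, adhesion molecules of axons, were the other members that fell.

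The 6-base sequence CACCTG, the E-box that factors of the Zeb and Snai families are known to bind, was counted in promoters (RefSeq, GRCm38.p6, 250 bases before to 50 bases after a start) on both strands, so that its reverse complement CAGGTG also counted. A promoter was found for 22 of the 40 epithelial genes, and 18 of them (81.8%) held the sequence. It was present for 22.6% of the 27025 genes with a promoter in the table, 21.9% of the genes tested and 22.2% of the 18 neural and mesenchymal adhesion genes that had one. A match shows only that the letters are there. The promoters below are those of the 3 epithelial genes with the highest ESC level among the matches, in lower case with the E-box in capitals on the gene's strand, at chr7:29281928-29282227 (minus strand), chr17:87635729-87636028 (plus strand) and chr5:134946885-134947184 (minus strand), respectively.
Spint2: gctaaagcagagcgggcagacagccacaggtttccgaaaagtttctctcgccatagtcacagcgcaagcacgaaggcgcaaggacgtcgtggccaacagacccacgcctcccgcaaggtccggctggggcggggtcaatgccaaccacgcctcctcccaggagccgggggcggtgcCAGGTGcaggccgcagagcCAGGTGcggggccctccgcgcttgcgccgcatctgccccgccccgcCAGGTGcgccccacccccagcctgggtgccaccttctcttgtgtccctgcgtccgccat
Epcam: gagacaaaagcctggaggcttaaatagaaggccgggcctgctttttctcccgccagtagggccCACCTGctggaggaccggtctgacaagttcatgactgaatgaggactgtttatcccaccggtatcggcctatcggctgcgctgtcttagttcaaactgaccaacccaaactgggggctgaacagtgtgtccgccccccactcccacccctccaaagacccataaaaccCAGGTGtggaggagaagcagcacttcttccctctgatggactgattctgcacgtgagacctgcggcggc
Cldn4: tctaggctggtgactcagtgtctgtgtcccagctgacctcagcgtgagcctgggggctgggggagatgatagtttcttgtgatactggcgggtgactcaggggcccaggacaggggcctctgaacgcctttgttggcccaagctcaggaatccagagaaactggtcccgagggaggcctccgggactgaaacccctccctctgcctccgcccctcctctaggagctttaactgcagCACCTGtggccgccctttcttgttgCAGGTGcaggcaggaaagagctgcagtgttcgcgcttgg
*Spint2*, a Kunitz-type protease inhibitor, held it 3 times and fell from 245 to 0.373–1.22 CPM. *Epcam*, an epithelial adhesion molecule, held it 2 times and fell from 181 to 0.0465–1.17 CPM, and *Cldn4* held it 2 times and fell from 147 to 0.0215–0.0583 CPM.

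Of 34 genes of meiosis, piRNA handling and germ cell identity, 26 fell and none rose (83.9% and 0.0% of the 31 tested in all 4 fits). Their median log2FC was −8.46 (−5.91 at the bounds). Of the 34, 13 were at the floor in NPC and could pass the filter on low counts only through ESC, which partly fixes the share. *Hormad1*, a protein of meiotic chromosome axes, was at 17.5, 11.7, 11.6 and 15.7 CPM in ESC and had no count in 16 NPC libraries, at least 305-fold lower. *Stk31* had none either, and *Mael*, *Dazl* and *Dmc1* were at the floor in NPC after 8.30, 7.66 and 9.66 CPM in ESC. *Tfap2c*, a transcription factor of germ cell precursors and trophoblast, fell from 114 CPM to at most 0.0367 CPM, and *Piwil2*, an Argonaute protein of the piRNA pathway, from 68.5 to at most 0.312 CPM. A pair of X-linked members differed between cultures instead. *Rhox5*, at 490 CPM in ESC, was at 856, 70.1, 2.79 and 3.65 CPM in NPC P5, P15, P30 and P15 D3, and *Trap1a*, at 188 CPM in ESC, at 0.575, 216, 0.0413 and 0.0135 CPM.

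The palindrome CACGTG, an E-box bound by the Max and Mga family, was found in 10 of 20 promoters (50.0%) of germline genes that fell. Over the whole germline list it was found for 13 of 28 (46.4%). The share was 8.09% of all genes in the table, 11.3% of the genes tested and 12.95% of all genes outside the panels that fell. The promoters printed are those of the highest ESC level among the matching germline genes that fell. They lie at chr5:138280259-138280558 (plus strand), chr5:135979855-135980154 (plus strand) and chr13:112652261-112652560 (minus strand), with the palindrome in capitals.
Stag3: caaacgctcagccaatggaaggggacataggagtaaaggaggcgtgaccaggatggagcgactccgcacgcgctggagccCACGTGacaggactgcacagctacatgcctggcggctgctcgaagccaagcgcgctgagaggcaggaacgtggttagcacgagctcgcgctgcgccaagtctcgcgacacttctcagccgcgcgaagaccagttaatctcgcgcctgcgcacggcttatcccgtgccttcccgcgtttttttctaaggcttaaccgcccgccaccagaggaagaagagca
Zp3: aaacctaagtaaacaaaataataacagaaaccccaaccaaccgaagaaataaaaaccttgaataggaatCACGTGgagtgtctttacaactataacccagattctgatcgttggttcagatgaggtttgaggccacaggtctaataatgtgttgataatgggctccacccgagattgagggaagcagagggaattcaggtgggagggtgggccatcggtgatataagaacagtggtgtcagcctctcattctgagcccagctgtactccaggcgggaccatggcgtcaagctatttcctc
Ddx4: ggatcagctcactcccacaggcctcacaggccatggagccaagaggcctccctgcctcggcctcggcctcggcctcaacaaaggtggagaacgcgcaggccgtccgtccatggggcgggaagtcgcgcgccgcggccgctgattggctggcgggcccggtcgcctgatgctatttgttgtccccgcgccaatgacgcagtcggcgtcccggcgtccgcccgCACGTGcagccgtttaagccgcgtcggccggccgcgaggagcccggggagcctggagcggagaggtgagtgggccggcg
*Stag3*, a meiotic cohesin subunit, went from 40.6 to 0.775–1.90 CPM, *Zp3*, a protein of the egg coat, from 38.3 to at most 0.0891 CPM, and *Ddx4*, the Vasa helicase, from 32.7 to 0.0414–0.405 CPM. The promoters of *Stag3* and *Ddx4* held 30 and 38 CpG dinucleotides, and that of *Zp3* held 7, with a median of 20 over the genes tested. The median was 7 over the 278 genes at the floor in NPC that had a promoter, and 7 over all genes of the table.

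**Figure D2:**
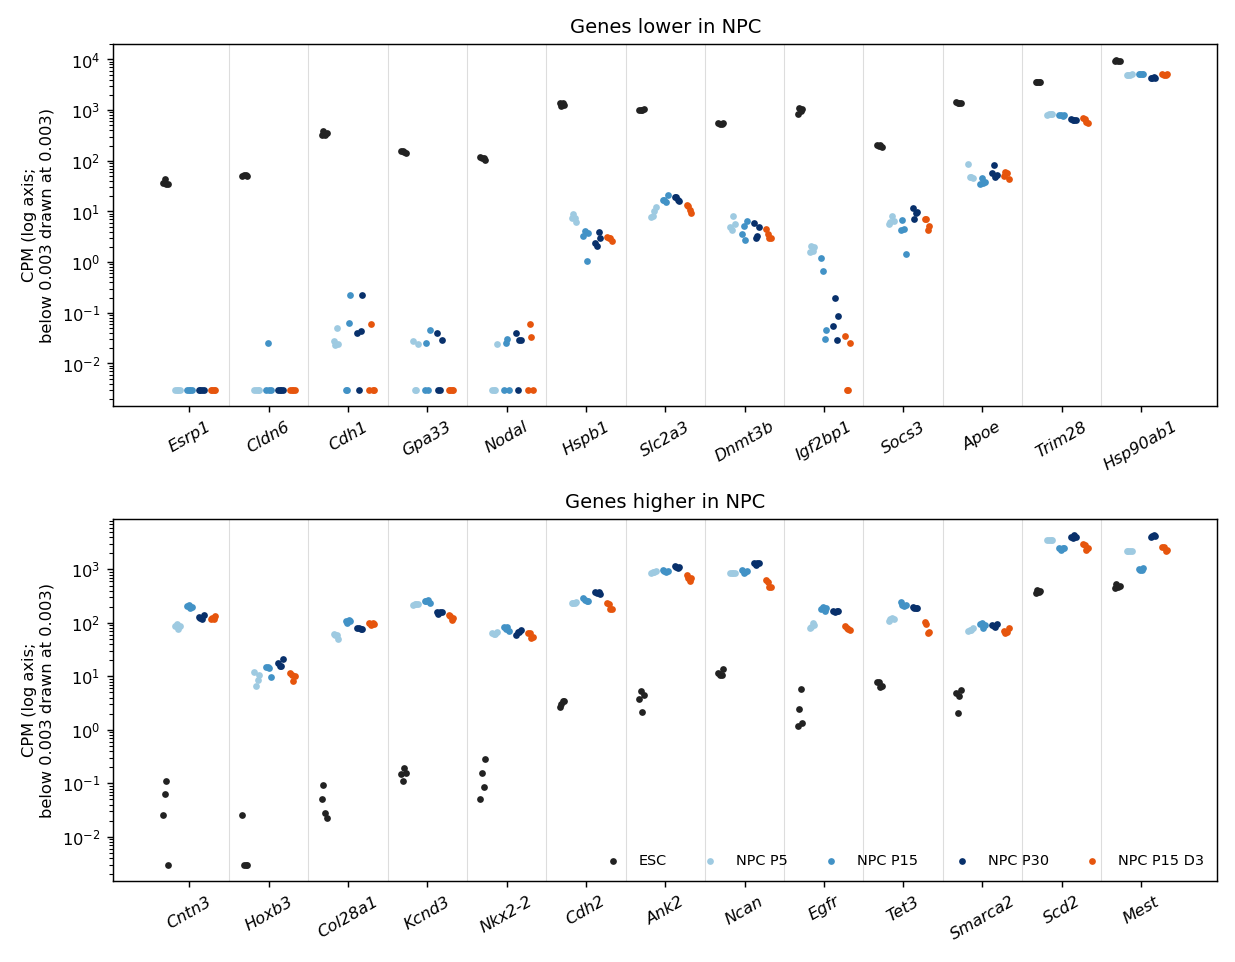
CPM of 26 genes in each of the 20 libraries (log axis, 1 point per library, colours for ESC and the 4 NPC cultures). In the upper plot, of genes that fell, the ESC points lie above every NPC point, and in the lower plot, of genes that rose, they lie under every NPC point. Within NPC the spread between cultures exceeds that within a culture for *Mest* and *Ncan*, while the libraries of NPC P15 are far apart for *Igf2bp1*.

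LIF acts through gp130, JAK kinases and Stat3, whose direct targets include *Socs3*. Of 15 genes of this pathway, 6 fell and 1 rose (40.0% and 6.67%). *Socs3*, a feedback inhibitor, was at 206, 198, 209 and 190 CPM in ESC and at 1.42, 6.65 and 11.7 CPM (lowest, median, highest) in NPC. *Pim1* fell from 206 to 3.91–5.41 CPM and *Bcl3* from 155 to 0.311–4.55 CPM. The receptors and *Stat3* were not DEGs in all 4 cultures: *Lifr* was at 49.7 CPM in ESC and 44.7–95.6 CPM in NPC, *Il6st*, which encodes gp130, at 81.5 and 99.8–154 CPM, and *Stat3* at 134 and 116–244 CPM, higher in NPC P5 and P30 and lower in NPC P15 D3 in their own fits. *Jak2* rose from 3.04 to 30.7–49.3 CPM. In the Nodal pathway, 7 of 16 genes fell and 2 rose (50.0% and 14.3% of the 14 tested in all 4 fits). The ligand *Nodal* was at 117, 112, 112 and 104 CPM in ESC and at most 0.0592 CPM in any NPC library. *Gdf3*, a related ligand, *Foxh1*, the DNA-binding partner of Smad2, and the inhibitor *Smad7* fell with it (195, 112 and 90.8 CPM in ESC), while *Acvr2a*, a receptor, and *Smad3* rose (6.35 to 24.5–30.7 CPM and 20.6 to 30.0–72.0 CPM).

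Of 12 enzymes that add or remove DNA methylation, 4 rose and 5 fell (33.3% and 41.7%). *Dnmt3b*, a de novo methyltransferase, was at 558, 539, 537 and 566 CPM in ESC and at 2.73, 4.43 and 8.02 CPM (lowest, median, highest) in NPC (log2FC −7.03, SE 0.19, adjusted p = 3.6e-18). *Dnmt3a* fell less, from 498 to 127–223 CPM, and *Dnmt1*, the maintenance enzyme, was not a DEG in all cultures (342 against 251–380 CPM). Of the TET dioxygenases, *Tet1* (129 to 15.5–30.3 CPM) and *Tet2* (68.7 to 19.2–32.3 CPM) fell, and *Tet3* rose from 6.29–7.81 to 65.5–251 CPM across libraries. On a scale per kilobase of exon, *Tet1* exceeded *Tet3* in every ESC library (log2 ratio 3.73–4.58) and was below it in every NPC library (−3.19 to −1.96).

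Of 28 genes of the Polycomb complexes, which keep developmental genes silent, 15 fell and 7 rose (53.6% and 25.0%). Accessory subunits of PRC2 typical of ESC fell, *Epop* from 631 to 15.9–42.7 CPM, *Jarid2* from 645 to 43.6–63.7 CPM and *Mtf2* from 238 to 18.6–26.8 CPM. The core subunit *Eed* fell from 340 to 38.9–53.3 CPM and *Suz12* from 144 to 86.3–94.5 CPM, whereas *Ezh2* was not a DEG in all cultures (207 against 126–210 CPM). In PRC1, *Cbx7* fell from 196 to 1.66–3.21 CPM, and *Cbx6* and *Cbx8* rose, *Cbx6* from 73.9 to 212–235 CPM. *Rybp* fell (97.0 to 24.5–47.6 CPM) and its paralogue *Yaf2* rose (7.56 to 46.8–51.3 CPM).

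In the BAF chromatin remodelling complex, 10 of 27 genes rose and 5 fell (38.5% and 19.2% of the 26 tested in all 4 fits). *Smarca2*, the ATPase BRM, was at 4.87, 2.07, 4.31 and 5.69 CPM in ESC and at 64.1, 79.8 and 100.2 CPM (lowest, median, highest) in NPC, while its alternative *Smarca4*, BRG1, was at 461 and 416–592 CPM and was no DEG in all 4. *Smarcc2* (33.5 to 173–240 CPM), *Smarcd3* (6.18 to 31.2–41.0 CPM) and *Dpf3* (0.675 to 19.5–27.7 CPM), subunits known from neural BAF, rose. *Smarcc1*, *Smarcd2* and *Smarcb1* fell, none of them to below 200 CPM except *Smarcd2* (115 to 32.1–51.0 CPM). Per kilobase, the log2 ratio of *Smarcc1* to *Smarcc2* went from 3.73–4.04 in ESC to 0.38–0.99 in NPC, above 0 in all 16 NPC libraries.

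**Figure D3:**
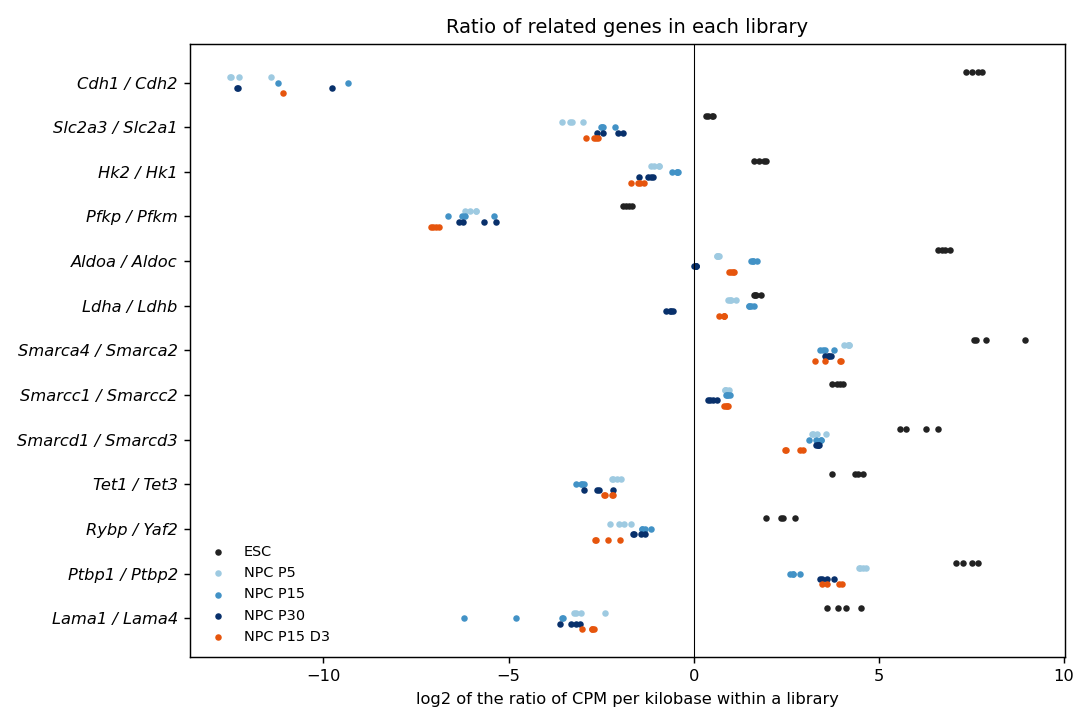
Log2 ratio of CPM per kilobase of exon between 13 pairs of related genes, 1 point per library, coloured by group. ESC points lie to the right of the NPC points in all 13 pairs, though barely for *Ldha* over *Ldhb* (lowest ESC 1.636, highest NPC 1.634). The pairs and the order within each were chosen, so the shared side is not a test. For *Cdh1* over *Cdh2* only the 10 NPC libraries with a count of *Cdh1* are drawn.

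Genes of glucose use fell more often than they rose. Of 27 genes of glucose transport and glycolysis, 15 fell and 6 rose (55.6% and 22.2%). *Slc2a3*, the transporter GLUT3, was at 1003, 1019, 986 and 1036 CPM in ESC and at 7.87, 14.4 and 20.8 CPM (lowest, median, highest) in NPC (log2FC −6.27, SE 0.18, adjusted p = 5.8e-18). *Pdk1*, a kinase that inhibits pyruvate dehydrogenase, fell from 133 to 4.12–10.0 CPM. *Slc2a1*, GLUT1, fell from 365 to 36.6–44.7 CPM, *Hk2* from 323 to 53.2–116 CPM and *Pfkp* from 105 to 4.92–9.01 CPM. Other isoforms of the same steps rose: *Hk1* (131 to 175–321 CPM), *Pfkm* (90.6 to 122–157 CPM) and *Aldoc* (25.2 to 393–914 CPM). Per kilobase, *Hk2* exceeded *Hk1* in every ESC library (log2 ratio 1.63–1.96) and was below it in every NPC library (−1.69 to −0.44), and the log2 ratio of *Aldoa* to *Aldoc* went from 6.59–6.92 to between −0.00 and 1.72. *Ldha* (646 to 817–1304 CPM) and *Ldhb* (94.4 to 212–603 CPM) both rose.

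Of 24 genes of serine, glycine and folate metabolism, 8 rose and 7 fell (33.3% and 29.2%, not far from the 24.2% and 26.5% of all genes). The 3 enzymes that make serine rose: *Phgdh* from 119 to 441–703 CPM, *Psat1* from 438 to 758–929 CPM and *Psph* from 43.9 to 77.2–144 CPM. *Shmt2* in the mitochondrion rose (346 to 446–618 CPM) and *Shmt1* in the cytosol fell (128 to 47.1–80.8 CPM). *Aldh1l2*, a mitochondrial folate enzyme, went from 1.31 to 68.0–254 CPM. In glycine cleavage, *Amt* fell from 168 to 15.6–44.3 CPM while *Gldc* and *Gcsh* were not DEGs in all 4.

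Of 25 genes of cholesterol synthesis and uptake, 14 rose and none fell (56.0% and 0.0%), with a median log2FC of 1.09. *Sqle*, squalene epoxidase, was at 43.9, 46.1, 46.6 and 43.7 CPM in ESC and at 168, 246 and 339 CPM (lowest, median, highest) in NPC. *Cyp51* (50.6 to 216–436 CPM), *Hmgcs1* (152 to 261–576 CPM) and the sensor *Scap* rose. *Mvd*, *Lss*, *Fdft1* and *Ebp* were among the 11 that were not DEGs in all 4 cultures. NPC P15 held the lowest level of *Sqle*, *Cyp51* and *Hmgcs1* among the cultures. *Scd2*, a desaturase that makes monounsaturated fatty acids and the named gene with the largest gain in CPM, was at 362, 416, 376 and 403 CPM in ESC and at 3597, 2471, 4122 and 2669 CPM in NPC P5, P15, P30 and P15 D3.

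Chaperones and proteins of translation were among the largest losses in CPM. *Hsp90ab1*, the constitutive cytosolic HSP90, was at 9347, 9559, 9294 and 9470 CPM in ESC and at 4313, 5025 and 5251 CPM (lowest, median, highest) in NPC, and *Hsp90aa1* fell from 4896 to 698–1182 CPM. *Trim28*, the co-repressor KAP1, fell from 3592 ± 43.0 CPM to 633–828 CPM. *Ncl* (3627 to 1173–1442 CPM) and *Npm1* (2948 to 792–1306 CPM), proteins of the nucleolus, *Pabpc1* (2667 to 791–1081 CPM) and the elongation factor *Eef2* (4560 to 2884–3346 CPM) fell as well. Of 83 ribosomal protein genes with at least 10 CPM in ESC, 36 fell in all 4 cultures and none rose, with a median log2FC of −0.80. Over all genes tested in all 4 fits, 26.5% fell and 24.2% rose. The 83 genes were taken by their level in ESC, which can favour falls. Their summed share in NPC P15 D3, 4.63%, was nearer to that of ESC, 5.79%, than to the 2.56–3.28% of the other cultures, and whether this moved the count was not tested. *Hspb1*, a small heat shock protein, fell from 1316 ± 75.3 CPM to 2.84–7.54 CPM, and *Apoe*, the lipid carrier that astrocytes secrete, from 1405 ± 28.5 CPM to 38.4–60.5 CPM.

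Among RNA-binding proteins, *Igf2bp1*, an oncofetal protein that stabilises growth transcripts, had one of the deepest falls. It was at 854, 1081, 981 and 1051 CPM in ESC and at 1.83, 0.490, 0.0914 and 0.0149 CPM in NPC P5, P15, P30 and P15 D3. The libraries of NPC P15 ranged from 0.0310 to 1.23 CPM, with an SD of 0.571 CPM. *Trim71*, a target of let-7 microRNAs, fell from 164 to 1.83–2.31 CPM. Of 34 regulators of tissue splicing, 10 fell and 9 rose, which is 33.3% and 30.0% of the 30 tested in all 4 fits, against 26.5% and 24.2% of all genes. *Ptbp1*, a repressor of neural exons, fell from 1052 to 462–637 CPM and *Ptbp2* rose from 12.4 to 53.2–153 CPM. *Ptbp1* still exceeded *Ptbp2* per kilobase in every NPC library (log2 ratio 2.60–4.64, from 7.07–7.68 in ESC). *Qk*, a glial splicing factor, rose from 81.8 to 359–839 CPM, *Mbnl1* from 3.75 to 65.4–103 CPM and *Nova1* from 2.08 to 23.3–59.7 CPM.

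**Figure D4:**
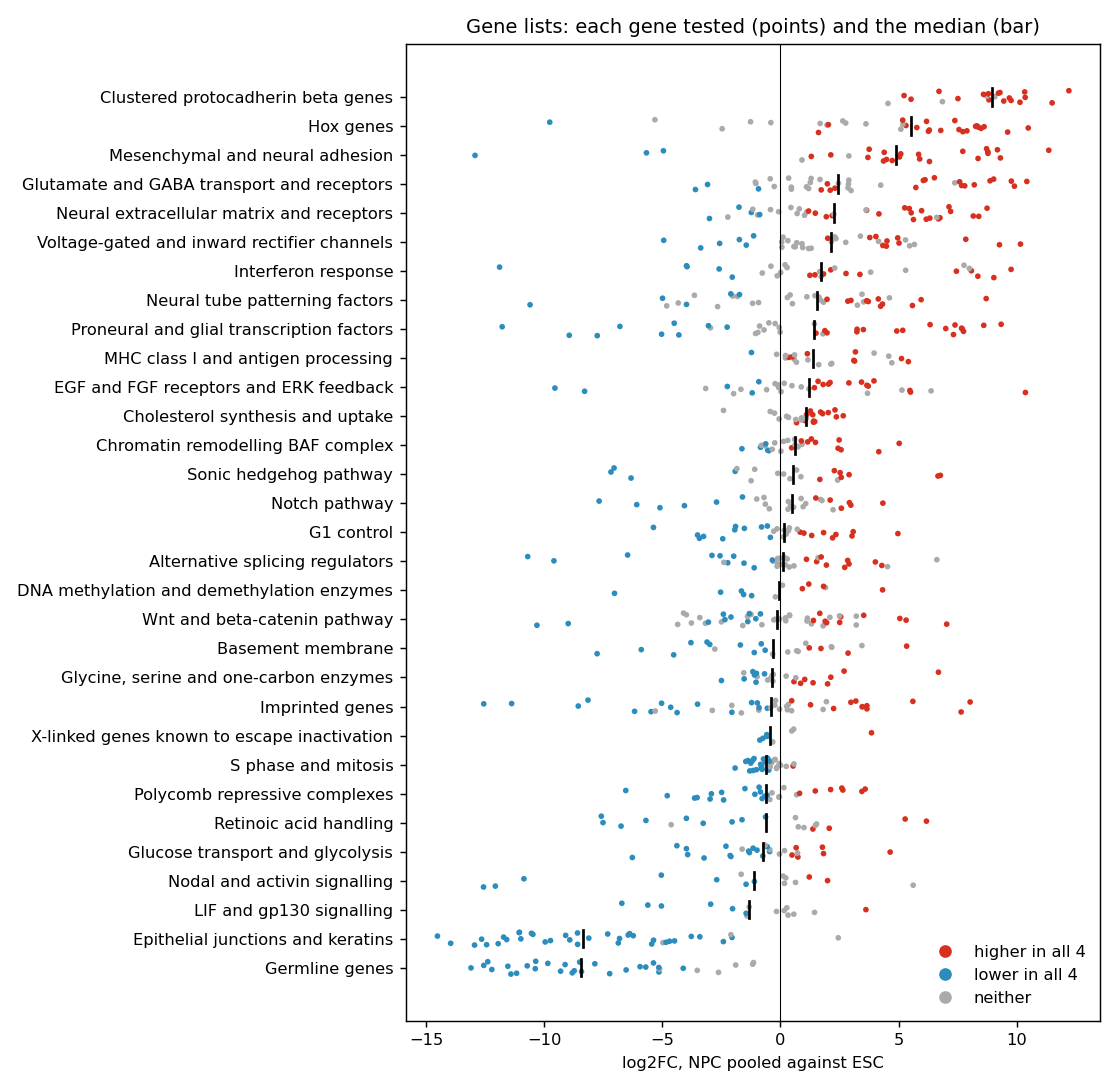
Log2FC of NPC pooled against ESC for the tested members of 31 gene lists (points; red and blue, DEG higher or lower in all 4 cultures) with the median of each list (bar), ordered by median. Germline and epithelial genes sit near −8.4, and the clustered protocadherins, Hox genes and neural adhesion genes have the 3 highest medians, 8.95, 5.54 and 4.88.

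Among the named genes with at least 10 CPM in NPC, the largest fitted fold of a gain was that of *Cntn3* (chromosome 6, 102163304–102564614), contactin 3, an adhesion molecule of neurites. It was at 0.0253, 0.0626, 0.112 and 0 CPM in ESC and at 86.1, 204, 128 and 124 CPM in NPC P5, P15, P30 and P15 D3 (log2FC 11.36, SE 0.56, adjusted p = 5.0e-14). *Kcnd3*, a channel of A-type potassium currents, went from 0.153 to 130–254 CPM, and *Col28a1*, a collagen of peripheral nerve sheaths, from 0.0487 to 57.3–108 CPM. *Sec16b*, *Ntng1*, *Adamts12* and *Btla* started at the floor, and were at least 526-, 379-, 848- and 259-fold higher. *Ntng1* encodes netrin G1, a protein anchored to axon membranes. *Btla*, which is known as a receptor of lymphocytes, was at 2.03, 4.12, 27.9 and 7.46 CPM. *Pantr1*, a noncoding RNA next to *Pou3f3*, rose from 0.0445 to 47.9–67.0 CPM.

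In absolute level, *Ank2*, ankyrin B, which ties membrane proteins to the cytoskeleton, went from 3.97 to 895, 945, 1108 and 689 CPM, *Mtss2* from 29.5 to 855–2886 CPM and *Mmp15*, a membrane metalloproteinase, from 24.8 to 725–1509 CPM. *Itgb1* (129 to 898–1186 CPM), *Serpinh1*, the collagen chaperone HSP47 (482 to 1384–3092 CPM), *Cd81* (242 to 832–1226 CPM) and *Maged1* (189 to 1493–1803 CPM) also gained. Of 38 genes of neural matrix and its receptors, 20 rose and 4 fell (57.1% and 11.4% of the 35 tested in all 4 fits). Their median log2FC was 2.26. Among the lecticans, *Ncan* was at 11.6, 10.4, 10.6 and 13.9 CPM in ESC and at 866, 922, 1293 and 540 CPM in the 4 cultures, *Bcan* went from 6.68 to 416–1148 CPM and *Vcan* from 5.99 to 195–433 CPM. *Ptprz1*, a receptor phosphatase of glial progenitors, rose from 1.72 to 314–670 CPM, and *Cspg5* and *Sparcl1* rose to 469–953 and 314–1339 CPM. Of 23 genes of the basement membrane, 10 fell and 4 rose (50.0% and 20.0% of the 20 tested in all 4 fits). *Fn1* fell from 664 to 60.5–101 CPM and *Nid2* from 272 to 32.5–39.8 CPM, and the collagen IV genes *Col4a1*, *Col4a2* and *Col4a5* rose.

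The clustered beta protocadherins, surface proteins that give neurons an identity, were all but unread in ESC. Their 22 genes summed to 0.386 CPM in ESC and 124 CPM in NPC, and the median log2FC was 8.95 (6.73 at the bounds). In all 4 cultures 17 rose and none fell (100.0% and 0.0% of the 17 tested in all 4 fits). In ESC 17 of the 22 were at the floor and could pass the filter on low counts only through NPC. This share is therefore largely fixed by the filter and is not to be compared with 24.2%. *Pcdhb22* had no count in ESC and was at 7.82, 7.50, 9.00 and 8.50 CPM. These genes are similar in sequence, and their single values are uncertain. Of 44 transporters and receptors of glutamate and GABA, 17 rose and 3 fell (45.9% and 8.11% of the 37 tested in all 4 fits). *Gria3* (0.607 to 59.9–262 CPM), *Gria4* (0.225 to 38.7–63.9 CPM), *Grm5* (0.160 to 37.4–247 CPM) and *Gabrg1* (0.104 to 27.4–87.1 CPM) rose, and the glutamine transporter *Slc1a5* fell from 79.8 to 4.61–11.1 CPM. Of 39 ion channels, 11 rose and 6 fell (34.4% and 18.8% of the 32 tested in all 4 fits). Those that rose included *Kcnc1* (0.343 to 148–360 CPM), *Kcnj10*, the potassium channel of glia (4.74 to 67.7–281 CPM), and *Cacna1h* (2.81 to 53.4–141 CPM).

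The medium of NPC holds EGF and FGF. Of 35 genes of EGF and FGF receptors and the ERK feedback loop, 13 rose and 5 fell (44.8% and 17.2% of the 29 tested). *Egfr* was at 1.18, 2.41, 5.73 and 1.32 CPM in ESC and at 73.5, 130 and 195 CPM (lowest, median, highest) in NPC, with no overlap. *Fgfr1* rose from 131 to 301–473 CPM. The feedback inhibitors *Spry1* (14.9 to 111–325 CPM), *Spry4* (191 to 508–914 CPM), *Dusp6* (160 to 566–871 CPM) and *Lrig1* (15.9 to 190–350 CPM) and the ERK-responsive factor *Etv5* (390 to 908–1561 CPM) rose, while *Etv4* fell (237 to 96.3–159 CPM). *Erbb3*, a neuregulin receptor, fell from 54.0 to at most 0.356 CPM. *Fgf1* rose from 4.32 to 109–310 CPM.

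The sonic hedgehog pathway was stimulated during induction. *Gas1*, a co-receptor, rose from 4.61 to 242–936 CPM, *Smo* from 17.4 to 128–158 CPM and *Boc* from 5.01 to 18.3–45.9 CPM. *Gli1*, a direct target, fell from 47.9 to 0.115–0.585 CPM, but *Hhip*, also a known target, rose from 0.238 to 16.2–44.9 CPM. In all, 7 of 21 genes rose and 4 fell (36.8% and 21.1% of the 19 tested). In the handling of retinoic acid, 9 of 20 genes fell and 4 rose (56.2% and 25.0% of the 16 tested). The binding protein *Crabp2* fell from 36.4 to at most 0.408 CPM and the synthetic enzyme *Aldh1a2* from 11.5 to at most 0.178 CPM. The receptor *Rarg* fell from 431 to 18.4–36.4 CPM, and *Rarb* rose from 0.282 to 4.07–27.4 CPM. In the Wnt pathway 40 of 49 genes were tested in all 4 fits, and 25.0% rose and 25.0% fell, near the 24.2% and 26.5% of all genes, with 10 genes higher, among them *Wnt7a* (at least 22.6 CPM in each culture), *Ror1* and *Nkd1*, and 10 lower, among them *Fzd5* (167 to 17.1–27.2 CPM), *Tcf7l1* and *Lef1*. In the Notch pathway the shares of the 24 tested were also 25.0% and 25.0%: 6 of 26 rose, with *Lfng* (25.5 to 166–287 CPM) and *Maml2* (4.68 to 47.5–140 CPM) among them, and 6 fell, with *Rbpj* (326 to 42.4–60.8 CPM) among them.

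Of 39 Hox genes, 20 rose and 1, *Hoxc13*, fell (74.1% and 3.7% of the 27 tested in all 4 fits). *Hoxb3* (chromosome 11, 96307101–96347930) was at 0.0253, 0, 0 and 0 CPM in the ESC libraries and at 9.43, 13.6, 17.6 and 10.2 CPM in the cultures, at least 317-fold higher. The genes that rose were 8 of the Hoxa cluster, 8 from *Hoxb2* to *Hoxb9*, *Hoxc4*, *Hoxd3*, *Hoxd8* and *Hoxd9*, and *Hoxa9* (0.819, 2.49, 25.4 and 0.329 CPM) and *Hoxb9* (17.4, 61.5, 141 and 7.92 CPM) were highest in NPC P30 and lowest in NPC P15 D3. Of 41 other patterning factors of the neural tube, 11 rose and 5 fell (34.4% and 15.6% of the 32 tested in all 4 fits). *Nkx2-2*, a factor of the ventral cord and of oligodendrocyte precursors, rose from 0.145 to 58.9–79.1 CPM, while the forebrain and midbrain factor *Otx2* was at the floor in NPC. Of 42 proneural and glial factors, 17 rose and 9 fell (47.2% and 25.0% of the 36 tested in all 4 fits). The NFI genes, which drive the switch to gliogenesis, rose together (*Nfia*, 1.30 to 155–389 CPM; *Nfib*, 8.16 to 153–355 CPM; *Nfix*, 3.66 to 92.3–187 CPM; *Nfic*, 63.7 to 162–316 CPM), as did *Sox8* (1.98 to 258–565 CPM), *Sox6* (0.802 to 46.5–152 CPM) and *Pou3f3* (0.849 to 110–197 CPM). *Sox15*, a SOX gene of ESC, fell from 45.7 to at most 0.0342 CPM, and *Neurod1* from 11.2 to 0.144–1.09 CPM.

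Of 22 genes of MHC class I presentation, 8 rose and 1 fell (36.4% and 4.55%). *B2m*, the light chain, was at 6.04, 8.39, 9.66 and 6.27 CPM in ESC and at 229, 310, 725 and 141 CPM in NPC P5, P15, P30 and P15 D3. *Tap1* (5.62 to 28.1–108 CPM) and *Erap1* (1.09 to 23.6–75.1 CPM) rose, and the heavy chain genes *H2-K1* and *H2-D1* were not DEGs in all 4. Of 29 interferon genes, 11 rose and 5 fell (39.3% and 17.9% of the 28 tested in all 4 fits). When NPC P15 D3 was not required 17 rose, where the count over all genes went from 3625 to 4037. *Ifi44* was at 0.0253, 0, 0.112 and 0.0223 CPM in ESC and at 13.8, 8.17, 136 and 0.659 CPM in the cultures, and *Isg15* at 0.129 CPM in ESC and at 8.71, 2.62, 86.1 and 1.70 CPM. The receptor genes *Ifnar1* (48.4 to 108–134 CPM) and *Ifngr1* (5.12 to 46.2–69.3 CPM) rose more evenly. ESC held their own members of this family: *Ifitm1* fell from 118 CPM to at most 0.0810 CPM, *Ifitm2* from 481 to 29.4–40.6 CPM and the sensor *Ddx58* from 248 to 9.67–160 CPM.

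**Figure D5:**
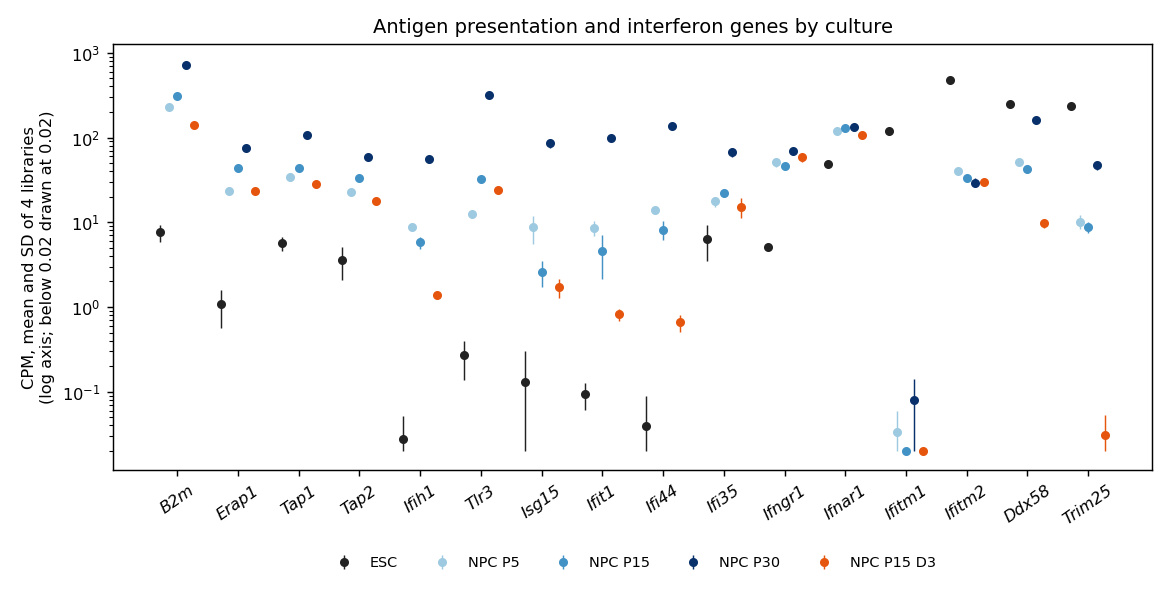
Mean CPM and SD (n = 4 libraries) of 16 antigen presentation and interferon genes in ESC and each NPC culture (log axis). NPC P30 is the highest group for *B2m*, *Isg15*, *Ifit1* and *Ifi44*, and *Trim25* is at 0.0311 CPM in NPC P15 D3.

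Of 32 genes of S phase and mitosis, 19 fell and 1, *Rrm1*, rose (59.4% and 3.12%), with a median log2FC of −0.59. *Mcm2* fell from 664 to 250–324 CPM and *Top2a* from 802 to 451–507 CPM, and *Mki67* and *Cdk1* were not DEGs in all 4. In G1 control, 11 of 28 fell and 9 rose (39.3% and 32.1%). *Ccne1* fell from 369 to 26.2–48.3 CPM, *Ccnd3* from 437 to 73.9–107 CPM, *Mycn* from 224 to 1.60–9.42 CPM and *Trp53* from 750 to 168–279 CPM. The inhibitors *Cdkn1a* (38.6 to 141–502 CPM), *Cdkn2a* (8.87 to 19.9–98.9 CPM) and *Cdkn2c* (1.32 to 31.4–57.5 CPM) and the pocket protein *Rbl2* (5.07 to 36.4–61.0 CPM) rose.

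Imprinted genes, which are read from 1 parental copy, were DEGs in both directions, 11 of 44 higher and 15 lower (28.2% and 38.5% of the 39 tested in all 4 fits, against 24.2% and 26.5% of all genes). *Mest* was at 452, 531, 468 and 482 CPM in ESC and at 2218, 1016, 4205 and 2457 CPM in NPC P5, P15, P30 and P15 D3. *Gnas* rose from 142 to 1031–1349 CPM, *Peg12* from 3.60 to 125–247 CPM, *Nap1l5* from 0.481 to 74.5–199 CPM and *Ndn* from 13.4 to 82.0–265 CPM. *Phlda2*, a placental growth inhibitor, was at 236, 182, 213 and 216 CPM in ESC and at most 0.131 CPM in an NPC library, and *Slc38a4* fell from 241 to 0.441–1.69 CPM. *Meg3* and *Rian* of chromosome 12 fell together (32.9 to 0.402–1.28 CPM and 52.6 to 0.107–1.75 CPM).

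Of 506 X-linked genes tested in all 4 fits, 166 rose (32.8%) and 110 fell (21.7%), compared with 24.3% and 26.9% of 14091 autosomal genes. The median log2FC was 0.46 against 0.01 for autosomal genes, and their share of counts was 2.15–2.23% in ESC and 2.56–2.78% in NPC, without overlap. Among genes with at least 10 CPM in ESC or NPC, the X chromosome (344 genes) had a median of 0.50, and the autosomes ranged from −0.27 to 0.39. In the single cultures the median of the X was 0.39–0.54, above every autosome. *Xist*, the RNA that coats an inactive X, was at 0.266 ± 0.170 CPM in ESC and at 0.0261–0.128 CPM in NPC. *Xist* stays in the nucleus, so that ribosome-bound RNA does not measure it well. The line was female, and the number of active X copies was not tested.

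Markers of other cell types were counted in the same way. Of 13 astrocyte markers, 4 rose and 2 fell (30.8% and 15.4%), and *Gfap* was at 16.8 CPM in ESC and 15.2–42.5 CPM in NPC. Of 14 oligodendrocyte lineage markers, 5 rose and 2 fell (41.7% and 16.7% of the 12 tested in all 4 fits). *Pdgfra* (1.99 to 61.0–261 CPM) and *Bcas1* (2.41 to 132–235 CPM) were among those that rose. *Mog* (1.92 to 0.0864–0.269 CPM) and *Myrf* (248 to 3.02–8.25 CPM) fell. Of 13 neuronal markers, 2 rose and 3 fell (18.2% and 27.3% of the 11 tested in all 4 fits). *Map2* rose from 4.39 to 617–711 CPM, and *Stmn2* fell from 306 CPM to at most 0.166 CPM. None of 8 mesoderm and 9 trophoblast markers rose, and 40.0% of the 5 and 71.4% of the 7 tested in all 4 fits fell. The 8 microglia markers summed to 3.95 CPM in ESC and 1.36 CPM in NPC. Of the 10 endoderm markers, 2 rose and 3 fell (28.6% and 42.9% of the 7 tested in all 4 fits). *Gata4* was at 11.2 CPM in ESC and rose to 19.7–41.4 CPM, and *Pdgfra* was the other that rose. *Sox17*, *Gata6* and *Sox7* fell (1.41, 3.76 and 10.2 CPM in ESC). The 10 fibroblast markers and 8 neural crest markers had 1 gene each that rose and 2 each that fell. These were 10.0% and 20.0% of the 10 fibroblast markers tested in all 4 fits, and 14.3% and 28.6% of the 7 neural crest markers tested. Fewer cells of a type and less RNA per cell cannot be told apart in such bulk libraries.

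Of the genes that rose, 2938 of 3584 differed between the 4 NPC cultures, as did 2038 of 3170 tested among those that fell, where 63.3% of all 15348 genes tested did. At 10 CPM or more in a group, the highest culture exceeded the lowest by a median of 1.57-fold for both directions. *Smc6* (64.7 to 101–103 CPM), *Rdx* (198 to 304–320 CPM), *Gnb1* (173 to 285–295 CPM), *Capns1* (506 to 295–306 CPM) and *Smarcb1* (273 to 204–214 CPM) were among the most even. The ratio was over 10 for 26 named genes that rose and had at least 10 CPM in NPC, and NPC P30 was the highest culture for 20 of them and NPC P15 D3 the lowest for 15. Besides interferon genes these included *Mmp2* (480.8, 938, 29.4 and 350.4 CPM) and *Chl1* (46.2, 101, 113 and 2.49 CPM).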

How the data were processed

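Ribosome-bound RNA of 4 ESC and 16 NPC libraries was analysed from the deposited gene counts, which the authors made with Trimmomatic, HISAT2 and featureCounts on mm 10, per the labels. Both mates of a pair appear to have been counted, since 62.7–73.8% of counts from 1 to 20 were even. The values are raw counts, 30473157–147764968 a library, and their precision is that of counting and of the replicates. Symbols came from RefSeq (25275 of 27179 genes) and GENCODE (18). Counts were normalised by TMM, filtered with filterByExpr and tested with the quasi-likelihood test of edgeR 4.0.16 in R 4.3.3, with Benjamini-Hochberg adjustment and a threshold of 0.01. Pooled NPC and each culture were set against ESC, and the 4 cultures against each other. The steps were tested on simulated data, where 131 of 200 changed genes were recovered in the pooled fit over 16276 genes, with 2 other calls. For the same direction in all 4 cultures 104 of 200 were recovered over 14435 genes, and for differences between cultures 113 of 200 over 16086 genes, with 0 other calls each. The simulated spread was that of NPC P15, and only 200 other genes differed between cultures, all in NPC P30. Those genes were left out of the 2 other calls of the pooled fit. In the data 63.3% of genes tested differed between cultures, so these rates need not hold there. CPM were computed from the library totals. An SE is the absolute log2FC divided by the square root of the F statistic and was not taken from the fit itself. It is only a rough guide for genes near 0 counts in a group. A group was at the floor with at most 3 counts in each library. Lists are summarised by counts and medians.

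Named genes were those with a symbol, outside the panels, called in the pooled fit and in all 4 cultures and at 10 CPM or more: the 15 largest in fold and 15 in CPM difference per direction, the 10 most even per direction and the 10 most uneven (these tied, with a culture at 0, and are not described), and of each list the leading members and those needed to say which part moved. The members and lists were chosen with earlier results of these data known. Replicate numbers did not pair the libraries (correlations of −0.021 to 0.018). DESeq2 1.42.0, other size factors and filters, a replicate block, halved counts and left-out libraries and cultures were tried as alternatives. Some genes are not reported here.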

Additional observations from a re-analysis of the deposited data

Results flagged for a closer look

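Of 159 groups of 4 libraries, 6 held a library far from its others, where chance gives about 1 in 20. *Esrp1* was at 44.4 CPM in ESC replicate 2 and at 36.6 CPM in the nearest. *Apoe* was at 87.1 CPM in NPC P5 replicate 1, against 47.5 CPM in the nearest, and *Tet3* was at 108 CPM there, against 119 CPM. The share of ribosomal protein genes was 2.52% in NPC P15 replicate 1 and 2.74% in the nearest library. *Hoxb3* was at 9.89 CPM in NPC P15 replicate 4, against 14.3 CPM. X-linked genes took 2.74% of counts in NPC P15 D3 replicate 4, against 2.63%.

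For 10 named genes the cultures were DEGs against ESC in opposite directions. Among all genes, 415 were called higher in at least 1 culture and lower in at least 1 other. The difference between cultures was tested by edgeR's quasi-likelihood test. The 10 genes were picked by opposite calls on the same libraries, so a small p-value is no further support. *Rhox5* was higher in NPC P5 and lower in the other 3 (adjusted p = 1.43e-25). *Mvd* (2.8e-10) and *Lss* (3.25e-14) were higher in NPC P5 and lower in NPC P15, *Mvd* also in NPC P30. *Fdft1* was higher in NPC P5 and P15 D3 and lower in NPC P15 (6.83e-13). *H2-D1* (5.88e-20), *Mbd1* (6.24e-21) and *Tspan6* (2.62e-21) were higher in the 3 passages of the first derivation and lower in NPC P15 D3. *Stat3* was higher in NPC P5 and P30 and lower in NPC P15 D3 (2.05e-11), and *Magohb* was higher in NPC P30 and lower in NPC P15 D3 (6.41e-15). *Gpat2* was higher in NPC P15 D3 and lower in NPC P5 and P30 (4.87e-13).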

How the results depend on the processing

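The counts of DEGs stayed within 1.5 times of their value under each alternative run. For 40 gene lists the median log2FC was also taken with DESeq2 size factors and from mean CPM. Of these medians, 73 differed from the main value by less than the SD of the culture medians, and 7 moved further. With 1 library left out, 4716–5125 genes were higher and 4655–5066 lower in pooled NPC, 3511–3596 higher and 3746–3963 lower in all 4 cultures, and 9155–9635 differed between cultures. Replicate numbers did not pair the libraries, and with the replicate block the counts were 4875 and 4814, 3290 and 3535, and 9644. A contrast of the 4 culture means gave the most pooled calls, 5840 and 6247, and size factors of DESeq2 in edgeR gave 4785 and 5399. Of 274 named genes none reversed. *Ddx58* lost its pooled call without NPC P5 (adjusted p = 0.01271) or NPC P15 (adjusted p = 0.01315), and *Ldha* without NPC P15 (adjusted p = 0.01108), and *Tspan6* without NPC P5, P15 or P30 (adjusted p = 0.01269 to 0.01545) or an ESC library (0.01242 to 0.01666). *Gcsh* lost it with the replicate block (adjusted p = 0.01511), without any 1 ESC library (0.01427 to 0.03861) and without NPC P5, P15 or P30 (0.02399 to 0.02864), all by edgeR. List counts without NPC P15 D3 were an alternative chosen after seeing the data. The 4 cultures come from 2 derivations, and passage and derivation cannot be told apart from culture effects. Low levels are limited by depth.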

Other observations

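Some genes were near absent in a single culture. With the others at 5 CPM or more and over 15 times higher, a rule chosen after the values were seen, there were 17 such genes in NPC P15 D3, 1 in NPC P5 and none in NPC P15 or NPC P30. *Magohb*, an exon junction protein, was at 8.83 CPM in ESC, at 12.2, 9.73 and 21.5 CPM in NPC P5, P15 and P30, and had no count in NPC P15 D3. *Mbd1*, a reader of methylated DNA, was at 7.87 CPM in ESC, at 41.7, 61.3 and 24.2 CPM in these cultures and at 0.0113 CPM in NPC P15 D3. *Tspan6*, a tetraspanin, was at 190, 147 and 130 CPM and at 1.84 CPM. *Evc2*, a ciliary protein of hedgehog signalling, was at 42.7 CPM in ESC, at 18.8, 46.2 and 48.1 CPM and at 0.0534 CPM, respectively. *Trim25* and *Slc7a3* belonged to the genes that fell in all 4 cultures, and *Chl1* and *Rtp4* to those that rose. *Gpat2* was the gene of NPC P5, at 0.430 CPM there and at 26.4, 10.3 and 39.8 CPM in NPC P15, P30 and P15 D3.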
